A study of Mus musculus with 6 samples.

Results

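Liver RNA-seq was examined for 36 genes of protein folding, quality control and protein entry in the endoplasmic reticulum (ER), taken by symbol from GENCODE M21. They comprised 14 chaperones and foldases, 6 stress sensors and transcription factors, 9 genes of ER-associated degradation and 7 translocon subunits. All 36 were among the 54532 genes of the count table, and all 36 passed the filter on low counts that left 12795 genes for testing. The question was whether these genes differed between livers of mice on a high-fat diet (HFD) and livers of mice on the same diet that also drank allantoin, a urate oxidation product. Both groups were WT male C57BL/6J mice that entered at 8 weeks of age. They received HFD for 4 weeks and, in a second period of 4 weeks, HFD with plain or allantoin-supplemented drinking water. The labels list concentrations of 0.06 and 0.3 mg/mL without a dose for each library. The study describes the sequenced mice as its high-dose arm. There were 3 HFD libraries (replicates 1 to 3) and 3 HFD+allantoin libraries (replicates 4 to 6). The labels do not tie libraries to single animals, so p-values measure the spread between these libraries, and no library came from mice without HFD.

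The ER is where secreted and membrane proteins are made, folded and inspected, and the hepatocyte, which secretes most plasma proteins, is rich in it. Nascent chains enter through the Sec61 channel with its associated TRAP complex, fold with the help of chaperones such as BiP (the product of Hspa5), and, if they fail to fold, are passed back to the cytosol for degradation. When unfolded proteins build up, the sensors IRE1 (Ern1), PERK (Eif2ak3) and ATF6 start the unfolded protein response. Its transcription factors ATF6 and spliced XBP1 bind motifs such as the ER stress response element (ERSE) in chaperone promoters, while PERK acts through ATF4.

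Many members share the ERSE, so the sites are shown here. The ERSE was searched as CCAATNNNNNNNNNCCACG on both strands of RefSeq promoter windows on GRCm38.p6, which run from 250 bases before to 50 bases after a gene's start. A window was matched for 30 of the 36 members. Manf, Hyou1, Atf6, Derl1, Sec61a1 and Ssr2 had no entry. The ERSE was found in 9 of the 30 members (30.0%) and in 37 of 27025 genes (0.137%). The capitals mark the CCAAT and CCACG ends of each site, each site is written 5′ to 3′ in the direction of the motif, and the distance is that of its most upstream base from the start.
Hspa5 (chr2:34772025-34772043, plus strand, 65 bases upstream): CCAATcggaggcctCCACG
Hsp90b1, distal (chr10:86705638-86705656, minus strand, 212 bases upstream): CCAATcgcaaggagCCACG
Hsp90b1, proximal (chr10:86705533-86705551, plus strand, 107 bases upstream): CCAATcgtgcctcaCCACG
Dnajc3 (chr14:118937827-118937845, plus strand, 105 bases upstream): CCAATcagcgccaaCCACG
Pdia6 (chr12:17266491-17266509, plus strand, 98 bases upstream): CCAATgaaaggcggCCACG
Calr (chr8:84847075-84847093, plus strand, 162 bases upstream): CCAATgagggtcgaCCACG
Canx (chr11:50325800-50325818, minus strand, 145 bases upstream): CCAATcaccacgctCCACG
Creld2 (chr15:88819520-88819538, minus strand, 126 bases upstream): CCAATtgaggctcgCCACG
Syvn1 (chr19:6046532-6046550, plus strand, 44 bases upstream): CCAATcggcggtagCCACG
Derl3 (chr10:75893242-75893260, minus strand, 156 bases upstream): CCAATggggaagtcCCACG

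The related ERSE-II, searched as ATTGGNCCACG on both strands, occurred in Dnajb11 and Herpud1, that is in 2 of 30 members (6.67%) and 12 of 27025 genes (0.0444%). These sites are shown because Herpud1 is a well-known target of the response. The site of Dnajb11 began 8 bases downstream of the start and that of Herpud1 52 bases upstream.
Dnajb11 (chr16:22857852-22857862, plus strand): ATTGGcCCACG
Herpud1 (chr8:94386377-94386387, plus strand): ATTGGgCCACG

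The unfolded protein response element, searched on both strands in the single form TGACGTGG, was in none of the 30 windows and in 193 of 27025 genes (0.714%). Other forms of this element were not searched, so their absence from the windows is not shown. The CCAAT box, which lies within the ERSE and overlaps ERSE-II on the other strand, was in 24 of 30 members (80.0%) and in 41.1% of all genes. By class, the ERSE was found in 7 of 12 chaperones and foldases and in 2 of 8 degradation genes with a window, and in none of the windows of 5 sensors and 5 translocon subunits. A match describes the letters in these windows and not binding of a factor.

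The 250 bases upstream of Dnajc3 and of Syvn1 are given because, among the 11 members with either element, these 2 passed the test described below, in opposite directions. Capitals again mark the ends of the ERSE, and both genes lie on the plus strand.
Dnajc3 (chr14:118937682-118937931): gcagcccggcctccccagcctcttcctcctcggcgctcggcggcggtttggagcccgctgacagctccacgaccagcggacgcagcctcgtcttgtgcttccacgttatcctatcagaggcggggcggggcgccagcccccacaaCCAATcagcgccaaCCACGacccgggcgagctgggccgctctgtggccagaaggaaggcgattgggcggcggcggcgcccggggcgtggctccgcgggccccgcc
Syvn1 (chr19:6046326-6046575): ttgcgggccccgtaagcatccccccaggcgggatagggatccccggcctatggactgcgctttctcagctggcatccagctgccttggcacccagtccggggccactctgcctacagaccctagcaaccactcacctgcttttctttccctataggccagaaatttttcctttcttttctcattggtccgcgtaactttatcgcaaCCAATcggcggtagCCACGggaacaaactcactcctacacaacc

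The libraries held 11304059 to 14562848 counts in genes. Transcripts of the mitochondrial chromosome made up 17.9% to 36.5% of each HFD library and 6.92% to 11.4% of each HFD+allantoin library, and the TMM factors, which set the scale between libraries, ran from 0.756 to 0.951 and from 1.12 to 1.19. Of 8 hepatocyte markers, Alb was the most abundant, at 54402 to 82145 CPM (counts after scaling for library size), and was not called, while 3 were called lower (Apoa1 with a log2 fold change of -1.23, Serpina1c with -1.13 and Ttr with -0.79) and 2 higher (Cps1 with 1.05 and Apob with 0.92). The summed level of 8 stellate cell markers was 143 to 215 CPM in HFD and 358 to 410 CPM in HFD+allantoin libraries (6 of 8 called higher), and that of 10 macrophage markers 168 to 391 and 421 to 459 CPM (3 of 10 called higher). A set of 8 endothelial markers had 1 called higher, and 5 tested B and plasma cell markers, whose list summed to 23.8 to 58.3 CPM in HFD and 13.4 to 26.7 CPM in HFD+allantoin libraries, had 1 called lower. Among 6 adipocyte markers, Adipoq stood at 51.4 CPM in HFD replicate 2 and at 0 in the other HFD libraries. Plin1, Lep and Retn had the same arrangement. Cfd (60.2 to 122 CPM) and Car3 (2932 to 4140 CPM) were present in every HFD library and were not called. Pancreatic acinar markers, which would bring folding genes of their own, summed to 15.4 to 29.1 CPM across all libraries. Most of this sum was Cela1 alone, at 12.4 to 26.2 CPM. The part of these differences in the results below was not tested, and in whole liver fewer cells of a type and less RNA per cell cannot be told apart.

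The 36 genes did not move as a block. A gene was called when edgeR's quasi-likelihood test gave a Benjamini-Hochberg adjusted p under 0.05 over all tested genes. In HFD+allantoin livers 3 members were called higher (Atf6, Sec61a1 and Dnajc3) and 5 lower (Syvn1, Sec61b, Sec61g, Ssr1 and Ssr4), and 28 were not called. The share called higher was 8.33% of the members, beside 11.3% of all tested genes (1446 of 12795), and the share called lower was 13.9%, beside 13% of all tested genes (1666 of 12795). Both shares lay near the background. Counting genes whose groups did not overlap, 6 members lay higher and 9 lower in every HFD+allantoin library, beside 22.4% (2867 genes) and 21.9% (2797 genes) of all tested genes. At an unadjusted p under 0.05, 6 members lay higher (16.7%) and 12 lower (33.3%), beside 18.6% (2375 genes) and 20.5% (2624 genes) of all tested genes. Of the 28 members not called, 14 were called in at least 1 of the 15 alternatives in processing, at most in 5. The median log2 fold change of the members was -0.17, against -0.03 for all tested genes, whose quartiles lay at -0.54 and 0.44.

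By class, the calls were as follows. For chaperones and foldases the median log2 fold change was -0.19, with 1 of 14 called higher and none lower. The sensors and transcription factors had a median of 0.15, with 1 of 6 called higher and none lower, and the degradation genes a median of -0.13, with none of 9 called higher and 1 lower. The translocon had the lowest median, -0.54, with 1 of 7 called higher and 4 lower. The directions of the chaperone and degradation medians depended on the scaling, since scaling by library totals alone gave 0.17 and 0.34, while moving the median of all tested genes to 0.38. On that scaling the translocon stood at -0.13 and the sensors at 0.56. Of the members, 7 were called higher and 0 lower, beside 3162 and 674 of 12795 tested genes.

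**Figure D1:**
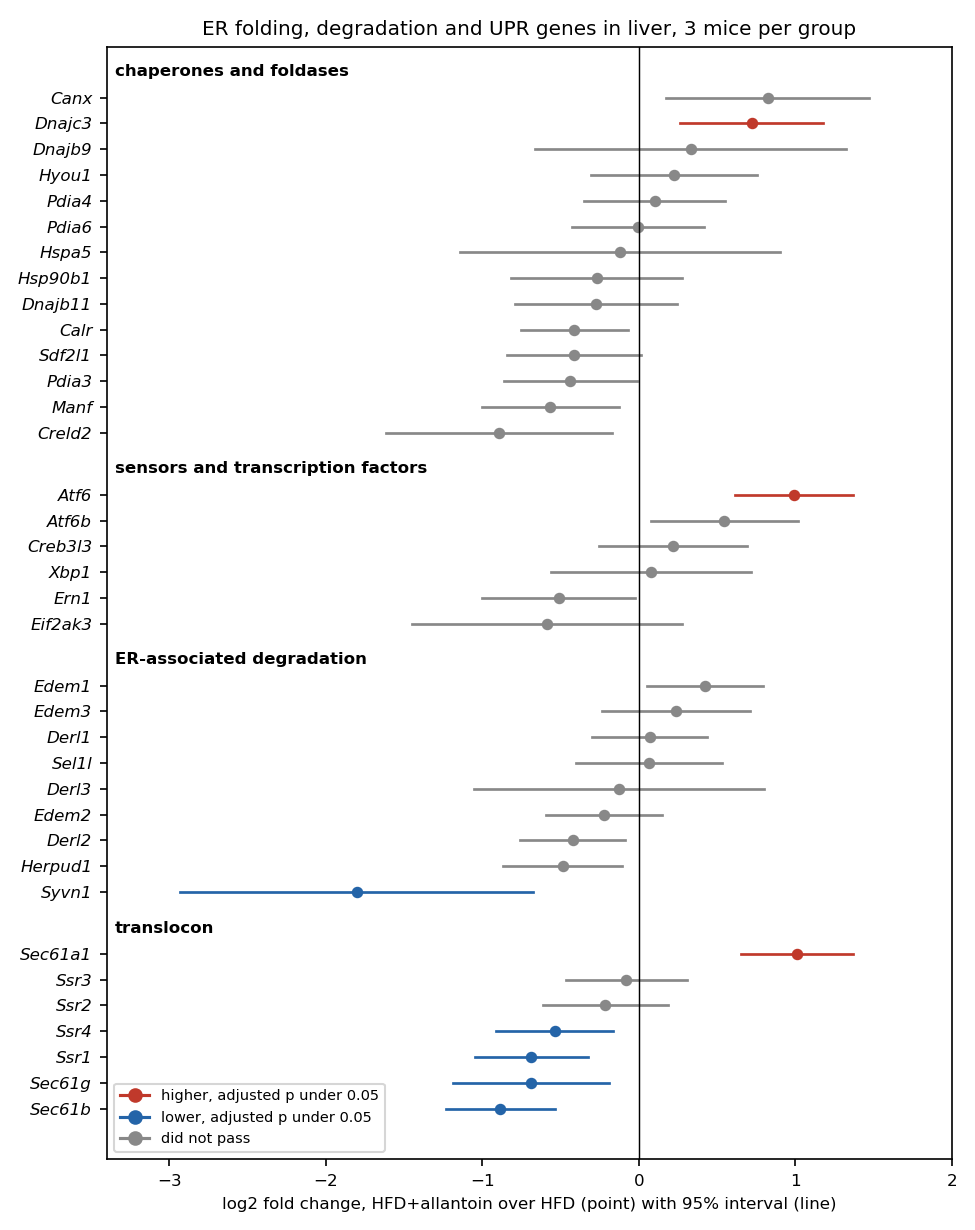
Log2 fold change (HFD+allantoin over HFD, x axis) of each of the 36 members, ordered by class on the y axis, with 95% intervals from edgeR and called members marked. Sec61a1 (1.01) and Atf6 (0.99) lie farthest right and Syvn1 (-1.80) farthest left, and most intervals of the chaperones include 0.

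Among the chaperones and foldases, the co-chaperone gene Dnajc3 was called higher. Dnajc3 (ENSMUSG00000022136, chr14:118937976-118981697), which encodes the BiP partner p58IPK, stood at 102, 117 and 163 CPM in the HFD libraries and at 194, 229 and 206 CPM in the HFD+allantoin libraries. Every HFD+allantoin library lay above every HFD library. Its log2 fold change was 0.72 (SE 0.20, adjusted p = 0.0318, edgeR), and the call was lost in 6 of 15 alternatives, including the removal of any HFD+allantoin library. Canx, which encodes the membrane-bound lectin chaperone calnexin, stood at 81.8, 160 and 198 CPM in HFD and 251, 257 and 271 CPM in HFD+allantoin libraries. These groups did not overlap either, but the spread among the HFD libraries was wide and the gene was not called (log2 fold change 0.82, SE 0.29, adjusted p = 0.0642, edgeR). It was called higher in 5 of 15 alternatives, by DESeq2 (adjusted p = 0.0203), by limma-voom (adjusted p = 0.0461), without a filter, with library-size scaling and without HFD replicate 3.

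Calr encodes calreticulin, the soluble relative of calnexin, and its values pointed the other way. It stood at 566, 566 and 615 CPM in HFD and 419, 455 and 439 CPM in HFD+allantoin libraries, without overlap, and was not called (log2 fold change -0.41, SE 0.15, adjusted p = 0.0765, edgeR). Within each library, which needs no scaling, the count ratio of Canx to Calr was 0.144, 0.282 and 0.323 in HFD and 0.599, 0.564 and 0.617 in HFD+allantoin libraries. This pair was picked after the values were seen.

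Hspa5 (ENSMUSG00000026864, chr2:34771970-34777547), the BiP gene and the usual readout of the unfolded protein response, stood at 539, 660 and 2090 CPM in HFD and at 887, 1130 and 1010 CPM in HFD+allantoin libraries. The HFD+allantoin values fell between HFD replicate 3 and the other HFD libraries. The means were 1096 ± 863 CPM (SD, n = 3) and 1009 ± 122 CPM (SD, n = 3), and the log2 fold change was -0.12 with a 95% interval of -1.14 to 0.90 (adjusted p = 0.872, edgeR), which spans a change of either sign. Dnajb9, the BiP co-chaperone ERdj4, had the same arrangement, with 33.8, 29.7 and 110 CPM in HFD and 65.2, 75.1 and 78.7 CPM in HFD+allantoin libraries. Its log2 fold change was 0.33 (95% interval -0.66 to 1.33, adjusted p = 0.616, edgeR).

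Both genes turned on HFD replicate 3. Without that library Hspa5 was called higher (log2 fold change 0.75, adjusted p = 0.0253, edgeR) and so was Dnajb9 (1.202, adjusted p = 0.00278, edgeR). Canx was then called as well (1.11, adjusted p = 0.0160, edgeR), so that 4 of 14 chaperones and foldases were called higher, beside 1773 of 13226 tested genes. The class median was 0.072. With HFD replicate 3 kept and HFD replicate 1 left out, the class median was -0.40.

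The other chaperones and foldases were not called. The largest difference among them was that of Creld2, an ER stress-inducible gene of disulfide chemistry, at 93.1, 58.3 and 153 CPM in HFD and 55.8, 63.9 and 44.6 CPM in HFD+allantoin libraries (log2 fold change -0.89, adjusted p = 0.0713, edgeR). Manf, a secreted ER stress-inducible factor, gave -0.57 (adjusted p = 0.0619), the disulfide isomerase gene Pdia3 gave -0.44 (adjusted p = 0.120), and neither overlapped between groups. The remaining log2 fold changes were -0.41 for Sdf2l1, -0.27 for the ER Hsp90 gene Hsp90b1 and for Dnajb11, -0.0043 for Pdia6, 0.10 for Pdia4 and 0.23 for the large chaperone Hyou1. At an unadjusted p under 0.05, 2 members of the class lay higher and 4 lower. Of the lower ones DESeq2 called 3 (Calr, Manf and Creld2), and limma-voom called 0.

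In level per length of exon sequence, which allows genes to be compared, Hspa5 had the highest mean of all 36 members. It stood at 259 ± 204 CPM per kb (SD, n = 3) in HFD and 239 ± 28.8 in HFD+allantoin libraries. It was followed in HFD by Calr (202), Hsp90b1 (186), Herpud1 (186) and Pdia3 (156). The first rank of Hspa5 in HFD rested on HFD replicate 3, at 2090 CPM against 539 and 660 CPM in the other HFD libraries. In those libraries Hspa5 lay below Calr per kb. The sensors Eif2ak3 (2.497), Atf6 (3.07), Atf6b (3.82) and Ern1 (4.32) lay at the low end together with Derl3 (4.08).

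**Figure D2:**
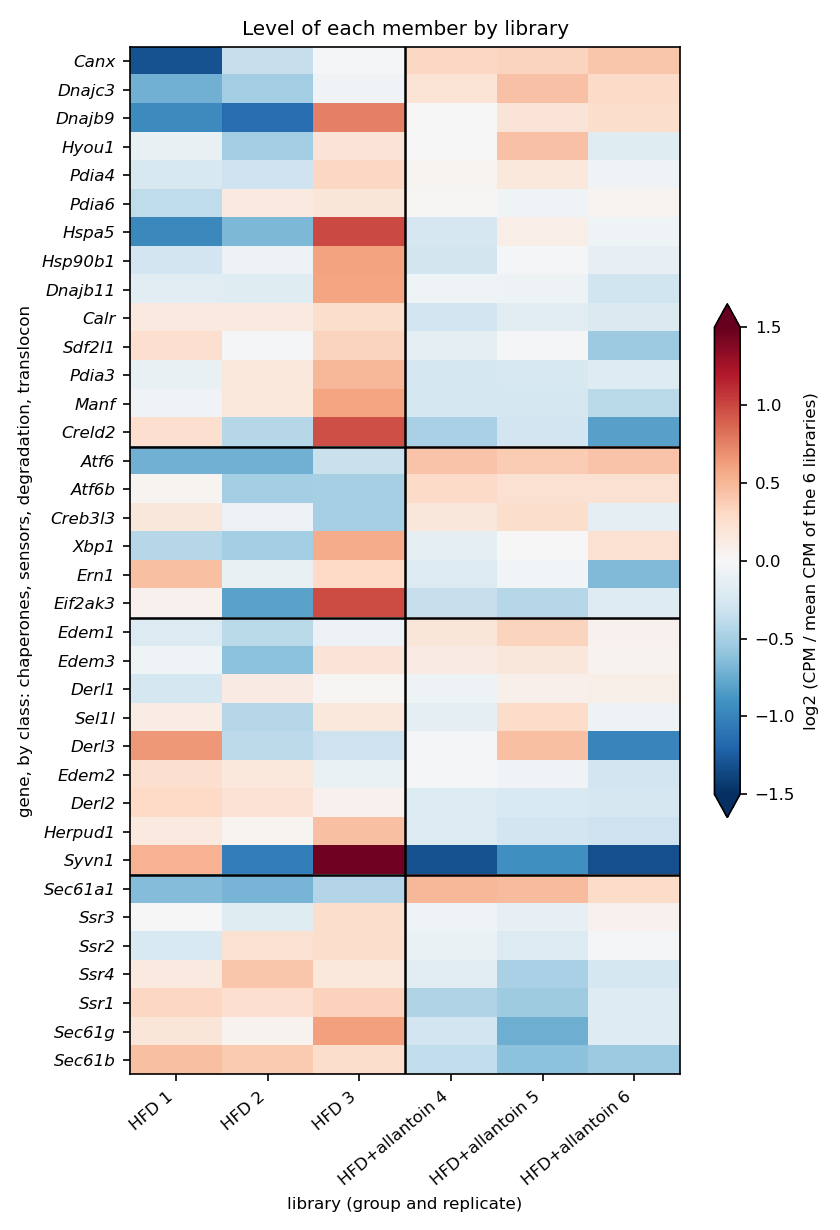
Log2 of each library's CPM over the mean of the 6 libraries, with the 36 members as rows, grouped by class, and the 6 libraries as columns. HFD replicate 3 has the highest value of the 6 libraries in 20 of 36 members, and the rows of Atf6, Sec61a1, Sec61b and Ssr1 split by group.

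Of the 6 sensors and transcription factors, Atf6 alone was called in the test of all 6 libraries. Atf6 (ENSMUSG00000026663, chr1:170704674-170867771) encodes the membrane-bound factor that is cut in the Golgi to release its active part. It stood at 25.8, 25.7 and 33.7 CPM in HFD and 57.0, 55.4 and 57.0 CPM in HFD+allantoin libraries. The groups lay far apart relative to their spread, at 28.4 ± 4.60 and 56.5 ± 0.886 CPM (SD, n = 3 each), and the log2 fold change was 0.99 (SE 0.17, adjusted p = 0.00537, edgeR). The call held in all 15 alternatives, with log2 fold changes of 0.76 to 1.39. Its paralog Atf6b stood at 13.3, 9.09 and 9.20 CPM in HFD and 15.8, 15.1 and 15.1 CPM in HFD+allantoin libraries. These groups did not overlap, and the gene was not called (log2 fold change 0.55, SE 0.21, adjusted p = 0.0844, edgeR). It was called higher in 3 of 15 alternatives, with library-size scaling, without HFD replicate 1 and with length and GC trends removed. The difference in response between the sensors was not tested beyond the count ratios within libraries.

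The IRE1 and PERK sensors had log2 fold changes of the opposite sign without a call. Ern1 stood at 41.2, 27.9 and 37.0 CPM in HFD and 26.0, 29.2 and 19.0 CPM in HFD+allantoin libraries (log2 fold change -0.51, 95% interval -1.002 to -0.023, adjusted p = 0.114, edgeR). Eif2ak3 stood at 13.1, 7.21 and 24.8 CPM in HFD and 9.90, 9.35 and 10.9 CPM in HFD+allantoin libraries (log2 fold change -0.59, 95% interval -1.45 to 0.27, adjusted p = 0.286, edgeR). Both genes overlapped between groups. The count ratio of Atf6 to Ern1 within a library was 0.626, 0.922 and 0.910 in HFD and 2.19, 1.90 and 2.99 in HFD+allantoin libraries, again a pair picked after the values were seen. At an unadjusted p under 0.05, Ern1 was the 1 sensor that lay lower. Neither DESeq2 nor limma-voom called a sensor lower, but Ern1 was called lower with length and GC trends removed (-0.70, adjusted p = 0.0356) and Eif2ak3 without HFD replicate 2 (-0.92, adjusted p = 0.0489).

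Xbp1, whose mRNA is spliced by IRE1 to encode the active factor, stood at 170, 160 and 334 CPM in HFD and 206, 229 and 266 CPM in HFD+allantoin libraries. The groups overlapped, and the log2 fold change was 0.08 (95% interval -0.56 to 0.72, adjusted p = 0.867, edgeR). Counts per gene do not separate the spliced from the unspliced form. Creb3l3 encodes CREBH, a liver factor of the same membrane-bound kind that acts on acute-phase and lipid genes. It stood at 313, 261 and 196 CPM in HFD and 311, 332 and 251 CPM in HFD+allantoin libraries, with a log2 fold change of 0.22 (95% interval -0.26 to 0.69, adjusted p = 0.482, edgeR), and was called higher with library-size scaling alone among the alternatives.

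**Figure D3:**
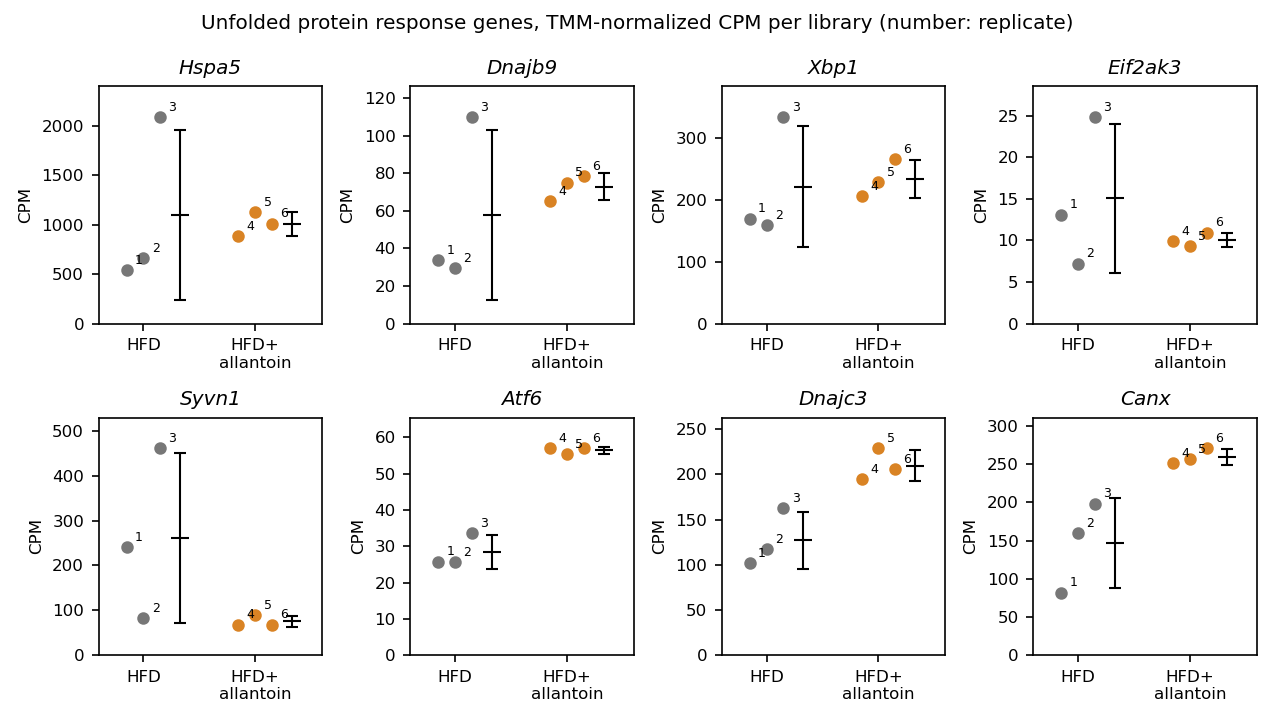
TMM-normalized CPM (y axis, from 0) of 8 members in each library, with points numbered by replicate and bars showing mean ± SD of 3 libraries per group. HFD replicate 3 stands above all other libraries for Hspa5, Dnajb9, Xbp1, Eif2ak3 and Syvn1, whereas Atf6, Dnajc3 and Canx separate by group.

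In ER-associated degradation, Syvn1 was the 1 called gene. Syvn1 (ENSMUSG00000024807, chr19:6046576-6053712) encodes HRD1, the ubiquitin ligase at the core of the retrotranslocation complex. It stood at 241, 82.0 and 461 CPM in HFD and 68.0, 89.0 and 67.6 CPM in HFD+allantoin libraries. HFD replicate 2 lay within the HFD+allantoin range while the other HFD libraries lay well above it. The log2 fold change was -1.80 (SE 0.50, adjusted p = 0.0307, edgeR), the largest in size among the 36 members. It ran from -2.23 without HFD replicate 2 to -1.11 without HFD replicate 3, and the call was lost in 6 of 15 alternatives. Mrpl49 on the opposite strand shares 91 exon bases with Syvn1 and had 310 to 441 counts per library (log2 fold change -0.38, adjusted p = 0.151, edgeR).

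The partners of HRD1 were not called. Sel1l, its adaptor, gave a log2 fold change of 0.06 (95% interval -0.40 to 0.53), and Herpud1, which helps assemble the complex, gave -0.49 (adjusted p = 0.0642, edgeR) without overlap between groups. The derlins, membrane proteins of the exit channel, gave 0.07 for Derl1, -0.42 for Derl2 (adjusted p = 0.0664, no overlap) and -0.13 for Derl3. Derl2 shares 231 exon bases with Mis12 on the opposite strand, which had 76 to 306 counts and was called higher (0.72, adjusted p = 0.0446). Among the mannose-trimming EDEM genes that mark glycoproteins for disposal, Edem1 gave 0.42 (adjusted p = 0.0872, no overlap), Edem2 -0.22 and Edem3 0.24. At an unadjusted p under 0.05, Edem1 was the 1 gene of the class that lay higher, and of the 15 alternatives library-size scaling alone called it. DESeq2 called 3 genes lower (Syvn1, Herpud1 and Derl2), and limma-voom called 0.

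The translocon held 5 of the 8 called members, and its subunits changed in opposite directions. Sec61a1 (ENSMUSG00000030082, chr6:88503579-88518905) encodes the pore-forming subunit of the Sec61 channel. It stood at 34.8, 33.8 and 40.3 CPM in HFD and 77.6, 76.4 and 66.1 CPM in HFD+allantoin libraries, and its mean was 2.02-fold that of HFD. The log2 fold change was 1.01 (SE 0.16, adjusted p = 0.00455, edgeR), and the call held in all 15 alternatives, with 0.97 to 1.43. The antisense gene Gm44170, which overlaps it, had 0 counts in every library.

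The small subunits of the same channel were called lower. Sec61b (ENSMUSG00000053317, chr4:47474658-47483242) stood at 43.9, 42.2 and 38.5 CPM in HFD and 24.7, 20.9 and 21.9 CPM in HFD+allantoin libraries (log2 fold change -0.88, SE 0.15, adjusted p = 0.00605, edgeR). Sec61g (ENSMUSG00000078974, chr11:16500530-16508484) stood at 20.7, 19.0 and 28.1 CPM in HFD and 14.96, 11.1 and 16.1 CPM in HFD+allantoin libraries (log2 fold change -0.69, SE 0.22, adjusted p = 0.0499, edgeR). Neither gene overlapped between groups, but Sec61g lay at the threshold and lost its call in 8 of 15 alternatives. Its near-copy Gm10177, which matches 424 bases at 99.1% identity and could share reads with it, had 31 to 80 counts per library (log2 fold change -0.24, adjusted p = 0.648, edgeR). The near-copy Gm10320 of Sec61b had 0 to 3 counts.

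Within each library the count ratio of Sec61a1 to Sec61b was 0.794, 0.801 and 1.05 in HFD and 3.14, 3.65 and 3.03 in HFD+allantoin libraries. That of Sec61a1 to Sec61g was 1.68, 1.78 and 1.44 in HFD and 5.19, 6.90 and 4.12 in HFD+allantoin libraries. These ratios do not depend on how libraries are scaled. In all, 7 such ratios were computed for pairs picked after the values were seen. A two-sided exact permutation test gave p = 0.10 for 6 of them (adjusted p = 0.117 over the 7), which is the smallest that 3 against 3 libraries allow, so these tests cannot pass 0.05.

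The TRAP complex, which assists the entry of certain chains, was called lower in part. Ssr1 (ENSMUSG00000021427, chr13:37966605-37994217), for the alpha subunit, stood at 107, 103 and 111 CPM in HFD and 63.6, 59.8 and 76.1 CPM in HFD+allantoin libraries (log2 fold change -0.69, SE 0.16, adjusted p = 0.0163, edgeR). Ssr4 (ENSMUSG00000002014, chrX:73787028-73790830), for the delta subunit, stood at 89.8, 108 and 90.4 CPM in HFD and 72.7, 58.1 and 67.8 CPM in HFD+allantoin libraries (log2 fold change -0.54, SE 0.17, adjusted p = 0.0441, edgeR). Both separated by group. Ssr2 gave a log2 fold change of -0.21 (95% interval -0.61 to 0.19) and Ssr3 -0.08 (95% interval -0.47 to 0.31), and both overlapped between groups. The count ratio of Ssr3 to Ssr4 was 2.43, 1.78 and 2.92 in HFD and 2.89, 3.46 and 3.36 in HFD+allantoin libraries, and these overlapped (exact permutation p = 0.20). That of Ssr3 to Ssr1 was 2.04, 1.87 and 2.39 in HFD and 3.30, 3.36 and 2.996 in HFD+allantoin libraries (exact permutation p = 0.10), and Ssr2 was not set against the other subunits. Scaling by library totals alone left Sec61a1 called and ended the call of Sec61b (-0.46), Sec61g (-0.29), Ssr1 (-0.28) and Ssr4 (-0.13), which then still lay below the median of all genes on that scaling, 0.38. With the trends in length and GC content taken out of every library, Sec61b gave -0.36 (adjusted p = 0.0792) and the class median was -0.36.

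**Figure D4:**
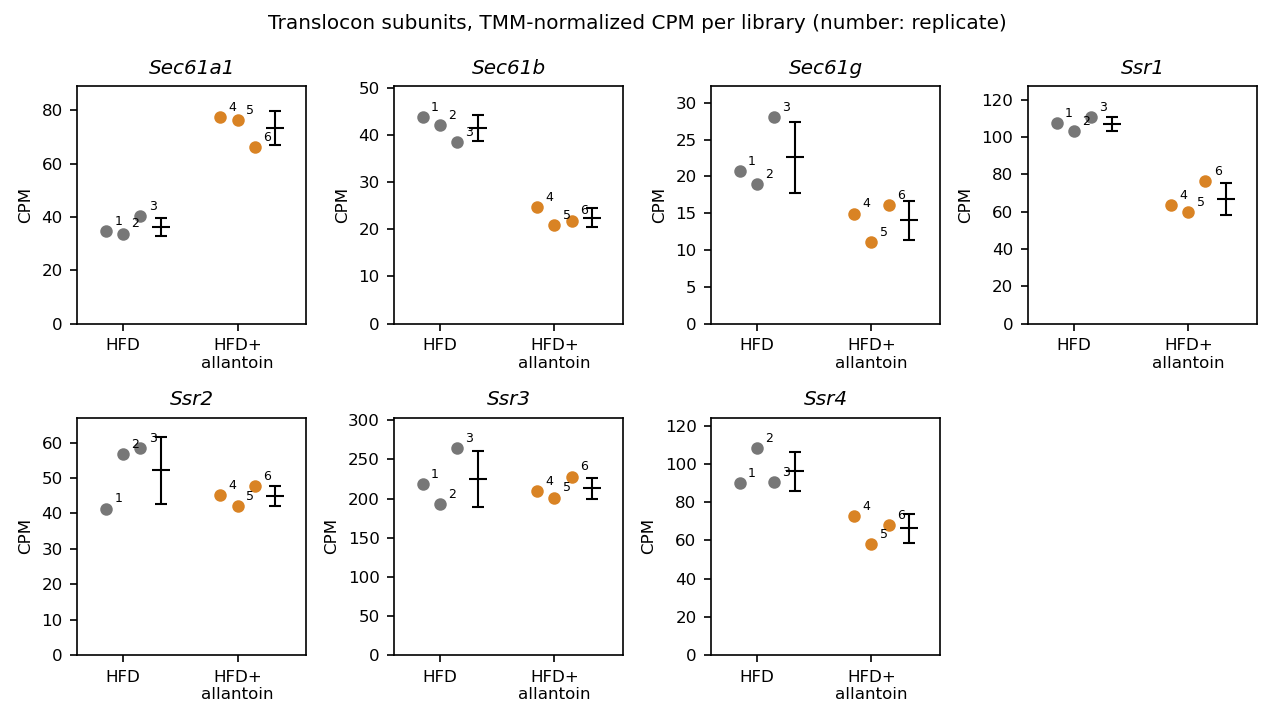
TMM-normalized CPM (y axis, from 0) of the 7 translocon subunits in each library, with points numbered by replicate and bars showing mean ± SD of 3 libraries per group. Sec61a1 is higher in the HFD+allantoin libraries (66.1 to 77.6 CPM against 33.8 to 40.3 CPM), and Sec61b, Sec61g, Ssr1 and Ssr4 are lower without overlap.

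HFD replicate 3 stood apart from the other HFD libraries in these genes. It was the highest of the 6 libraries in 20 of 36 members (55.6%), beside 16.0% of all tested genes. In 6 members it was at least 2-fold above the mean of the other HFD libraries on the log2(CPM + 1) scale, namely Hspa5, Dnajb9, Syvn1, Eif2ak3, Xbp1 and Creld2, beside 3.03% of all tested genes. The ratio in CPM was 3.49 for Hspa5, 3.46 for Dnajb9, 2.85 for Syvn1, 2.45 for Eif2ak3 and 2.03 for Xbp1 and for Creld2. By class, the median log2 ratio of this library to the other HFD libraries was 0.57 in chaperones and foldases, 0.24 in sensors, 0.22 in degradation genes and 0.23 in the translocon, and -0.02 over all tested genes. On the log2(CPM + 1) scale, no member reached 2-fold above the others in HFD replicate 1 or 2. The summed level of the 14 chaperones and foldases was 3063, 3437 and 5974 CPM in HFD and 3560, 4064 and 3762 CPM in HFD+allantoin libraries. In HFD replicate 3 the adipocyte markers Adipoq, Plin1, Lep and Retn stood at 0 CPM, Cfd at 60.2 CPM and Car3 at 4140 CPM. The mitochondrial share of this library, 17.9%, was the lowest of the HFD libraries. What set this library apart was not tested.

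Further genes of the same pathways were followed in 7 lists holding 115 genes, of which 113 were tested, 15 called higher (13.3%) and 20 lower (17.7%). Over all tested genes these shares were 11.3% and 13%, which are also the background for the counts of each list. Of the 35 called genes, 11 kept their call in all 15 alternatives, the others lost it in 1 to 13, and none changed sign. The PERK and ATF4 arm, which halts translation and induces amino acid and death genes, had the lowest median, -0.85, with 3 of 12 called lower and 1 higher. Atf4, its central factor, stood at 96.7, 63.6 and 174 CPM in HFD and 46.3, 51.8 and 57.8 CPM in HFD+allantoin libraries (log2 fold change -1.10, SE 0.32, adjusted p = 0.0382, edgeR). Ddit3, which encodes the stress factor CHOP, stood at 20.9, 16.9 and 93.4 CPM in HFD and 3.81, 4.55 and 6.34 CPM in HFD+allantoin libraries (log2 fold change -3.16, SE 0.63, adjusted p = 0.00953, edgeR). In both genes every HFD library lay above every HFD+allantoin library, and HFD replicate 3 lay highest. Atf3, a stress factor downstream of ATF4, was not called (log2 fold change -3.20, SE 1.46, adjusted p = 0.138, edgeR) and stood at 2.40, 1.28 and 126 CPM in HFD and 1.76, 2.13 and 10.3 CPM in HFD+allantoin libraries, so that its difference lay in HFD replicate 3. Without HFD replicate 3 the list median was -0.51. The call of Ddit3 was lost in 1 of 15 alternatives, when HFD+allantoin replicate 5 was left out, with log2 fold changes of -3.54 to -1.94. That of Atf4 was lost in 7, including the removal of HFD replicate 3, of HFD replicate 1 or of any HFD+allantoin library. Cebpb, a partner of CHOP, was called lower (-1.30, adjusted p = 0.00340, edgeR) and kept the call in all 15 alternatives. Eif2s1, the translation factor that PERK phosphorylates, was called higher (0.75, adjusted p = 0.0407, edgeR) and lost the call in 6.

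Among 24 other degradation genes, 7 were called higher and 4 lower. Nploc4, a cofactor of the extraction ATPase, stood at 32.6, 32.7 and 33.1 CPM in HFD and 75.8, 82.8 and 69.0 CPM in HFD+allantoin libraries (log2 fold change 1.21, adjusted p = 0.00296, edgeR). Svip, which encodes an inhibitor of ER-associated degradation, was called higher (1.72, adjusted p = 0.00403) from a low level of 2.84 to 4.93 CPM in HFD libraries. The others called higher were Rnf139, Man1b1, Ngly1, Vcp and Erlec1, with log2 fold changes of 0.56 to 0.91. Selenok, a selenoprotein of the ER membrane, was called lower, from 189, 158 and 175 CPM in HFD to 61.6, 58.2 and 66.5 CPM in HFD+allantoin libraries (log2 fold change -1.49, adjusted p = 0.00194, edgeR), and so were Fbxo6, Ube2j2 and Aup1. Nploc4, Svip, Selenok, Rnf139 and Fbxo6 kept their calls in all 15 alternatives. Man1b1 lost its call in 1, Ube2j2 in 4, Vcp in 5, Ngly1 and Aup1 in 6 each and Erlec1 in 9.

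Of 23 other folding enzymes tested, 2 were called higher and 5 lower. Fkbp2 (-1.40, adjusted p = 0.00403) and Fkbp11 (-1.63, adjusted p = 0.00573), prolyl isomerases of the ER, were called lower together with Fkbp14, Erp29 and Erp44. Ero1l, which passes oxidizing equivalents to disulfide isomerases, was called higher (0.83, adjusted p = 0.0169, edgeR), as was Qsox1. Fkbp2 and Fkbp11 kept their calls in all 15 alternatives. Ero1l lost its call in 2, Fkbp14 and Erp44 in 3 each, Qsox1 in 6 and Erp29 in 7. The oligosaccharyltransferase, which attaches N-glycans, had 2 of 12 called higher (Ostc, 1.11, and Tusc3) and 3 lower (Tmem258, -1.29, Krtcap2, -1.12, and Ost4), so subunits of this complex too were called in both directions. Tmem258 and Krtcap2 kept their calls in all 15 alternatives, Ostc lost its call in 1, Tusc3 in 3 and Ost4 in 13.

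Of 23 other translocation genes tested, 2 were called higher and 3 lower. Srpr, for the receptor of the signal recognition particle (0.88, adjusted p = 0.00844), and Spcs1, for a signal peptidase subunit (1.35, adjusted p = 0.0336), were called higher. Caml (-0.83, adjusted p = 0.00938, edgeR), for a membrane-insertion receptor, Srp19 and the signal peptidase subunit gene Sec11a were called lower. Srpr kept its call in all 15 alternatives, while Caml lost it in 1, Spcs1 in 3, Sec11a in 7 and Srp19 in 9. A list of 10 genes held ATF6 proteases, CREB3 family members and other genes of the response. Tmbim6, which is neither an ATF6 protease nor a CREB3 family member, was the 1 called. It was higher (0.61, adjusted p = 0.0300, edgeR) and lost its call in 4 of 15 alternatives. The proteases Mbtps1 and Mbtps2 and the family members Creb3, Creb3l1 and Creb3l2 were not called. Of 9 genes known as targets of CREBH, Hamp (-1.81, adjusted p = 0.0263) and Fgf21 (-2.82, adjusted p = 0.0403) were called lower, while Creb3l3 itself was not called. Both calls were lost when HFD replicate 1, the highest library for both genes, or any HFD+allantoin library was left out. They were also lost with length and GC trends removed, and that of Fgf21 with limma-voom.

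Finally, the promoter elements shown at the outset were set beside the expression changes. The 11 members with an ERSE or ERSE-II had 1 called higher (Dnajc3) and 1 lower (Syvn1), with a median log2 fold change of -0.27. Each call is 9.09% of these members, near the 11.3% and 13% of all tested genes, and each was lost in 6 of 15 alternatives. The 19 members with a window and neither element had 0 called higher and 4 lower by edgeR, with a median of -0.22. Atf6 and Sec61a1, both called higher, had no window and so could not be counted on either side. Across the genome, 49 genes carried either element, and of the 27 tested 2 were called higher and 5 lower. The shares of all tested genes, 11.3% and 13%, are the background for these counts as well. The windows of the members were richer in G and C than those of all genes, with medians of 62.7% and 52.7%.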

How the data were processed

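The 6 mouse liver RNA libraries were made with the SMARTER mRNA-Seq kit. The deposited table holds unnormalized counts of reads for each gene. The submitters' processing notes name GRCm38 and mm10, whereas the aligner, counting tool and strand setting are not given in the sources used here. Of 54961 entries, 429 without an Ensembl identifier (0.197% to 0.306% of counts) were left out. Totals were 11304059 to 14562848 gene counts per library. Symbols and positions came from GENCODE M21 (GRCm38) and promoter windows from RefSeq (GRCm38.p6). Where a symbol had several entries, as for Ddit3, the one with most counts was used.

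Counts were tested with edgeR 4.0.16 in R 4.3.3 (filterByExpr, TMM, quasi-likelihood test, group as the only term, two-sided, Benjamini-Hochberg over 12795 genes, threshold 0.05). CPM values are TMM-normalized. Standard errors and 95% intervals were derived from the F statistic. BLAST 2.17.0 was used to find transcripts that match a member over 200 bases or more at 95% identity or more. Exons of Derl2, Dnajb9, Eif2ak3, Hsp90b1, Manf, Pdia3, Pdia4, Pdia6, Sec61a1, Ssr2 and Syvn1 overlap other annotated genes, and without a known strand setting such reads cannot be told apart. The procedure was tested on simulated data.

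The members and lists were chosen with earlier results of these data known. Values per library were set for called members (at most 4 per class), Hspa5, Xbp1, Ern1, Eif2ak3, Atf6 and Creb3l3, and at most 3 called genes per further list plus Atf4 and Ddit3 were to be named. Values of Sec61g, Dnajb9, Canx, Calr, Creld2, Atf6b and Atf3 and the other called genes of the further lists were added after their values were seen. Alternatives were DESeq2 1.42.0, limma-voom (limma 3.58.1), scaling by RLE, by upper quartile or by library size, a filter of 10 counts in every library or none, leaving out each library, leaving out the mitochondrial chromosome, and removing trends in transcript length and GC content. Applying them to the further lists was chosen after seeing the data.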

Additional observations from a re-analysis of the deposited data

How the results depend on the processing

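Of the 8 called members, Atf6 and Sec61a1 kept their calls in all 15 alternatives. Sec61g lost its call in 8, Ssr4 in 7, Dnajc3 and Syvn1 in 6 each, Ssr1 in 3 and Sec61b in 2, and no called member changed direction. The count of members called higher was 3, rose to 7 with library-size scaling and ran from 2 to 6 when single libraries were left out. The count called lower was 5, became 10 with DESeq2 and 0 with library-size scaling, beside 1966 and 674 of 12795 tested genes. The member count ran from 1 to 6 when single libraries were left out. It was 1 without HFD+allantoin replicate 4 or 5 and 2 without HFD+allantoin replicate 6. With library-size scaling the class medians were 0.17 (chaperones and foldases), 0.56 (sensors), 0.34 (degradation) and -0.13 (translocon). The median of chaperones and foldases ran from -0.40 without HFD replicate 1 to 0.072 without HFD replicate 3, and that of degradation genes from -0.28 without HFD replicate 3 to 0.04 without HFD+allantoin replicate 6. With length and GC trends removed the translocon median was -0.36. When single libraries were left out, calls over all genes were fewest without HFD+allantoin replicate 5 (460 higher and 564 lower). They were most without HFD replicate 3 (1773 and 2008), against 1446 and 1666 with all 6 libraries. Library-size scaling gave 3162 higher and 674 lower, and leaving out the filter gave 1822 and 2134 of 23635 genes. No paired analysis was possible because the groups share no replicate numbers. With 3 libraries per group, the 95% interval of a gene as variable as Hspa5 ran from -1.14 to 0.90.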
